A study of Yarrowia lipolytica with 9 samples.

Results

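A set of 114 genes of the oleaginous yeast Yarrowia lipolytica was higher in strain Yl_5_2 and lower in strain Yl_5_3 than in the control strain Yl_5_1. The set was chosen from the read counts themselves. Counts were divided by DESeq2 median-of-ratios factors over the 9 samples, and the results are called scaled counts here. L2 and L3 denote the log2 ratio of the mean scaled count of Yl_5_2 and of Yl_5_3 to that of the control. A gene was a member if L2 was at least 0.35 and L3 at most -0.35. It also had to carry a RefSeq transcript accession beginning with XM_ and a mean control CPM (count relative to the total count of the sample) of at least 2. The 100 genes with the highest mean control FPKM (counts relative to coding length and to the total count) were left out by the rule, and so were 4 single accessions, of which 3 met both thresholds. The members are 114 of the 6145 features in the files, or 2.05% of the 5565 XM_ genes that passed the filters. Because both comparisons with the control chose the members, their values in these comparisons are given as a description, without a test.

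The strains, which the sample labels call ctrl (Yl_5_1), Y5_2 (Yl_5_2) and Y5_3 (Yl_5_3), were all derived from ATCC 201249. This parent carries mutant alleles of ura3, leu2 and lys8 and PEX17-HA. All of them carried the beta-carotene genes crtE, crtB, crtI and crtY at the rDNA site and 5 additional cassettes of Yl-SPT15 at the GUT2 site, under the promoters GPATp, YAT1p, XPR2p, FBAp and LEUp. The study states that this integration lowered GUT2 expression partly. In Yl_5_1 all cassettes were wild type. In Yl_5_2 module 1 encoded the substitution E208A and module 5 encoded P25T, A213T and A216V, while in Yl_5_3 module 2 encoded F194L (positions are counted from the initiator methionine, wild-type residue first). Each mutant strain was 1 colony picked by its colour, deep yellow for Yl_5_2 and light yellow for Yl_5_3. In these counts, a change elsewhere in its genome therefore cannot be told apart from the cassettes. The study also put the mutant alleles on a plasmid into Yl_5_1. It reports a significant role in carotene production for those of module 5 and of module 2. It also states that all the mutations contributed, and that different mutants together gave the phenotype of Yl_5_2. The RNA of those transformants is not among the samples here. Cells grew in synthetic medium without uracil and leucine for 96 h at 28 °C and 250 rpm, and 3 samples were sequenced per strain. Nothing in the labels says that the 3 samples of a strain were separate cultures, so the spread between them may be technical.

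Spt15 is the TATA-binding protein of Saccharomyces cerevisiae. It binds the core promoter as part of the general transcription factor TFIID, and the assembly of RNA polymerase II at most promoters starts from it. Because it serves so many promoters, a change in this protein can raise some transcripts and lower others in the same cell. The study treats Yl-SPT15 as the counterpart of SPT15 and uses its variants to shift transcription of many genes at once. Genes that moved in opposite directions in the strain with more carotene and the strain with less carotene are of interest for that design. The accessions in the files carry no gene names, and the annotation used here (RefSeq, assembly ASM176148v1 of strain W29) gives locus tags only, so the members are described by their accession, locus tag, level, length and position, without a function.

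The total count was between 17771507 and 23288547 per sample, and every member had at least 12 counts in every sample. Of the members, 80 had at least 100 counts in every sample. Samples of the same strain differed by more than counting error, so no sample was treated as a copy of another. The counts describe the share of each transcript in the RNA of a sample, so a change in the total RNA per cell cannot be seen in them. Targeted expression of Yl-SPT15 was not checked, since its accession was not identified here.

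The typical member changed by less than 2-fold in each strain. The median L2 over the 114 members was 0.52, a 1.43-fold higher scaled count in Yl_5_2, and the median L3 was -0.61, which left 65.4% of the control level in Yl_5_3. The corresponding medians over the 6037 features that reached 10 counts in 3 or more samples were 0.00 and 0.02. The quartiles over the members were 0.44 and 0.71 for L2 and -0.96 and -0.44 for L3. The largest L2 was 1.91 and the lowest L3 was -3.15, so the falls in Yl_5_3 reached farther than the rises in Yl_5_2. In 67 members the fall was larger than the rise, and in 47 the rise was larger. Yl_5_2 and Yl_5_3 differed from each other by a median of 2.37-fold, with a lowest log2 difference of 0.76 and a highest of 3.57.

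**Figure D1:**
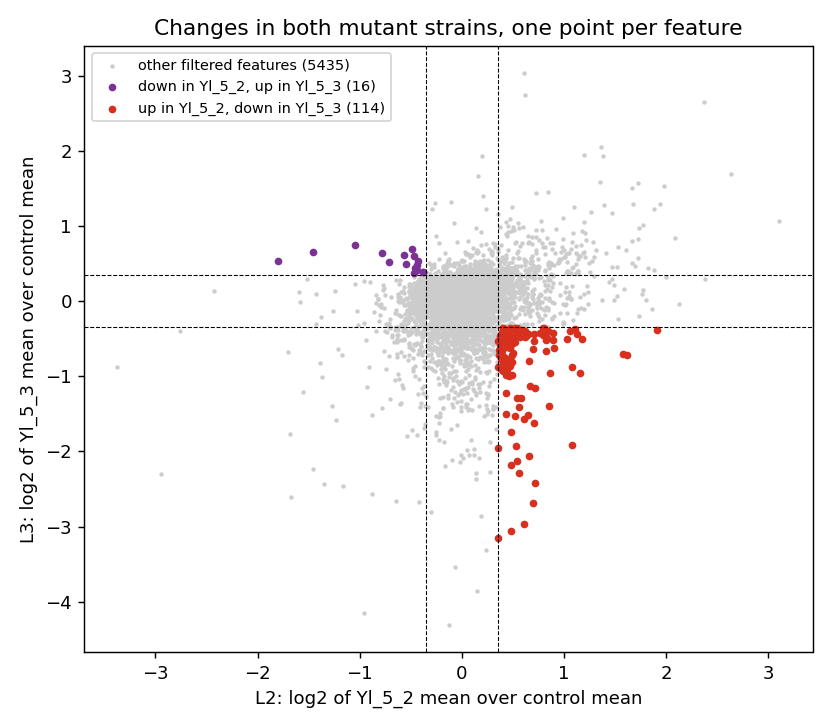
Each point is 1 of the 5565 filtered features, with L2 (log2 of the Yl_5_2 mean over the control mean) on the horizontal axis and L3 (log2 of the Yl_5_3 mean over the control mean) on the vertical axis; dashed lines mark 0.35 and -0.35. The 114 members (red) fill the lower right corner down to an L3 of -3.15, and 16 features (purple) lie in the opposite corner.

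The same rule with both signs turned chose 16 genes, lower in Yl_5_2 and higher in Yl_5_3, against the 114 of the rule itself. This difference in number held for each of the scalings tried, with 115 against 16 genes for edgeR's TMM factors, 120 against 15 for upper quartile factors and 171 against 11 for total counts. Another count used separation of the samples in place of a limit on size and took in all 6037 features, without the filters of the rule. Of the features whose 3 samples of each mutant strain lay apart from all 3 control samples in opposite directions, 476 were ordered like the members and 653 in reverse. That order turned with upper quartile factors, to 529 and 504, and with total counts, to 814 and 263. Which of these counts was the larger therefore depended on the scaling, whereas that of the members over the 16 did not in the scalings named.

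Every sample of a strain showed the shift. Relative to the control mean of each member, the median log2 ratio over the members was 0.51, 0.51 and 0.58 in the 3 samples of Yl_5_2. It was -0.59, -0.64 and -0.68 in those of Yl_5_3, and 0.04, -0.01 and -0.04 in those of Yl_5_1. The third sample of Yl_5_2 was the highest of its strain for 67 members, and the first sample of Yl_5_1 was the highest of the controls for 62. The median over all 5565 filtered features was between -0.01 and 0.02 in all 9 samples, as the scaling centres most features near 0, and the shift of the members is the one they were chosen for. The members together took 0.515% to 0.532% of all counts in Yl_5_1, 0.792% to 0.853% in Yl_5_2 and 0.283% to 0.298% in Yl_5_3. The order of these shares follows from the rule, which chose the members on the same samples.

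**Figure D2:**
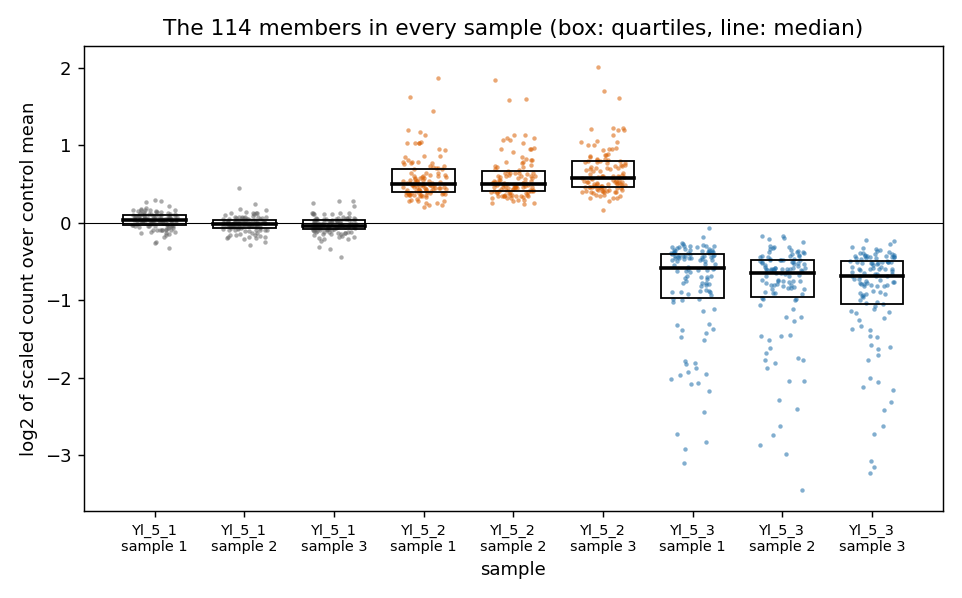
Each point is 1 member in 1 sample, as the log2 ratio of its scaled count to its control mean; boxes give the quartiles and thick lines the median over the 114 members. The medians of Yl_5_2 lie between 0.51 and 0.58 and those of Yl_5_3 between -0.68 and -0.59, and the points of Yl_5_3 spread farthest.

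By size of change, 79 members stayed under 2-fold in both strains, 24 fell by 2-fold or more in Yl_5_3 while rising less than that in Yl_5_2, and 10 rose by 2-fold or more in Yl_5_2 while falling less than that in Yl_5_3. Only 1 member passed 2-fold in both strains. The 24 members with the large fall had a median L3 of -1.69 and a median L2 of 0.56. The 10 members with the large rise had a median L2 of 1.14 and a median L3 of -0.50. For comparison, the 79 members with small changes had medians of 0.47 and -0.52.

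Among the members, XM_500826.1 (YALI1_B17363g) had the largest rise in Yl_5_2. Its scaled counts were 308, 279 and 304 in Yl_5_1, 1087, 1067 and 1196 in Yl_5_2, and 224, 264 and 192 in Yl_5_3. The samples of the 3 strains did not overlap, and the mean went from 297 ± 15.6 (SD, n = 3) to 1117 ± 69.5 (SD, n = 3), which is 3.77-fold, with an L3 of -0.39. XM_502151.1 (YALI1_C31408g) was next, with 372, 316 and 363 in Yl_5_1, 1081, 1066 and 1074 in Yl_5_2, and 239.8, 210.5 and 187 in Yl_5_3. It rose 3.07-fold and retained 60.6% of the control level in Yl_5_3. The third, XM_503383.1 (YALI1_E01081g), had 324, 279.7 and 281 in Yl_5_1, 799.7, 886 and 964 in Yl_5_2, and 181, 196 and 167 in Yl_5_3. These were the 3 members with an L2 of at least 1.5, and each of them had the 3 Yl_5_3 samples below all control samples.

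The next in order of L2 were between 2.18-fold and 2.26-fold higher in Yl_5_2. XM_505929.1 (YALI1_F34351g) had 361, 339.6 and 309 in Yl_5_1, 774, 739 and 771 in Yl_5_2, and 250.3, 221 and 239 in Yl_5_3. XM_504501.1 (YALI1_E33421g) had 1026, 1003 and 969.7 in Yl_5_1, 2253, 2135 and 2286 in Yl_5_2, and 504, 556 and 486 in Yl_5_3. This gene was nearly balanced, with an L2 of 1.15 and an L3 of -0.96, and its samples stood well apart between strains. XM_504763.1 (YALI1_E40603g) had 408, 405 and 363 in Yl_5_1, 860.3, 800.5 and 906 in Yl_5_2, and 328, 265 and 277 in Yl_5_3. Its fall was the smaller side, with an L3 of -0.44 against an L2 of 1.13.

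The deepest fall in Yl_5_3 was that of XM_505015.1 (YALI1_F07630g). Its scaled counts were 1189, 981 and 1098 in Yl_5_1, 1302, 1329.6 and 1553 in Yl_5_2, and 145, 99.7 and 123 in Yl_5_3. The mean dropped from 1089 ± 104 (SD, n = 3) to 122 ± 22.4 (SD, n = 3), to 11.2% of the control, whereas the rise in Yl_5_2 was only 1.28-fold, close to the threshold. XM_501196.1 (YALI1_B28430g) had 563, 426 and 389.6 in Yl_5_1, 592, 576 and 758 in Yl_5_2, and 53.4, 62.8 and 48.9 in Yl_5_3. In this gene the highest control sample lay just below the lowest sample of Yl_5_2. XM_499884.1 (YALI1_A08546g) had 1100.4, 876 and 903 in Yl_5_1, 1415, 1367 and 1598 in Yl_5_2, and 135, 121 and 114 in Yl_5_3. It had the widest gap of all members, with Yl_5_2 11.8-fold above Yl_5_3.

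The other 3 of the 6 members with the lowest L3 spanned a wide range of counts. XM_503171.1 (YALI1_D29626g) had 1655, 1573 and 1364 in Yl_5_1, 2359, 2323 and 2752 in Yl_5_2, and 230.4, 249 and 232 in Yl_5_3, with an L3 of -2.69. XM_501911.1, for which the annotation gave no locus tag, had 76.9, 75.9 and 70.0 in Yl_5_1, 142, 123 and 101 in Yl_5_2, and 13.6, 11.1 and 17.1 in Yl_5_3. The last values rest on 13, 12 and 15 reads, the fewest of the group, for an L3 of -2.42. XM_501615.1 (YALI1_C12024g) had 197, 183 and 202 in Yl_5_1, 267, 277 and 314 in Yl_5_2, and 42.9, 39.7 and 36.4 in Yl_5_3, with an L3 of -2.29. All 6 genes kept their 3 Yl_5_3 samples far below the controls.

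The member past 2-fold in both strains was XM_505633.1 (YALI1_F26167g). Its scaled counts were 801, 768 and 806 in Yl_5_1, 1616, 1541 and 1856 in Yl_5_2, and 186, 215 and 231 in Yl_5_3. The means of 792 ± 20.6, 1671 ± 165 and 211 ± 22.6 (SD, n = 3 each) correspond to an L2 of 1.08 and an L3 of -1.91. The FPKM of this gene, which allows comparison between genes, was 44.7 in Yl_5_1, 98.2 in Yl_5_2 and 11.2 in Yl_5_3. Yl_5_2 thus exceeded Yl_5_3 7.93-fold on the scaled counts.

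**Figure D3:**
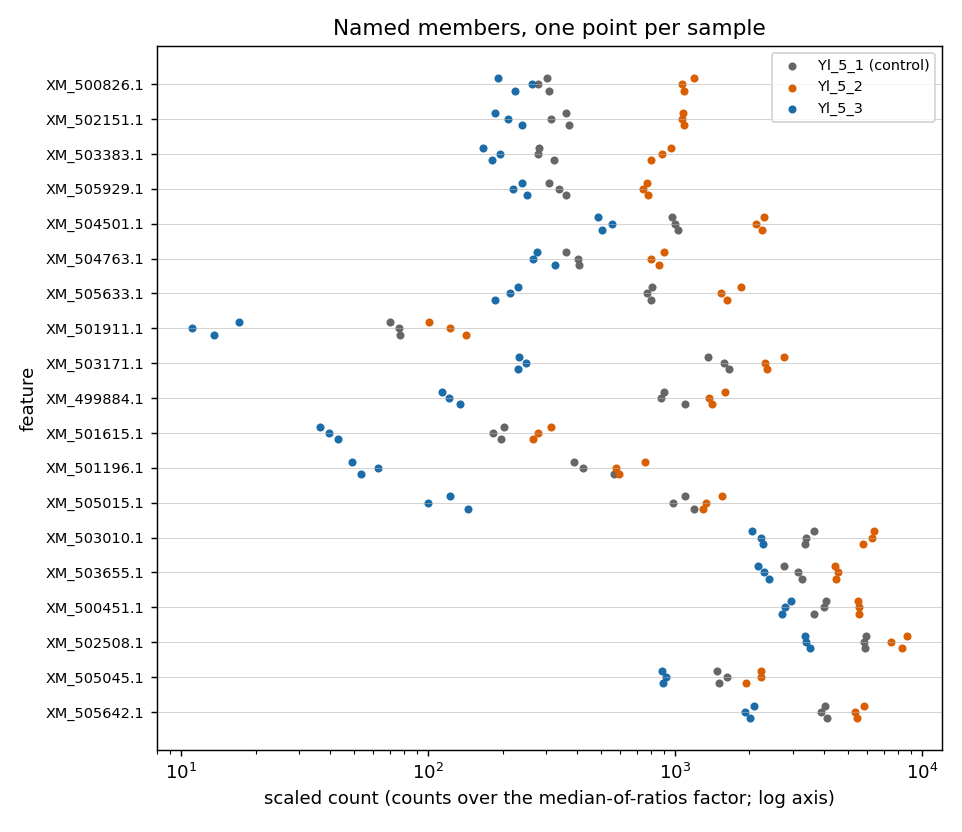
Scaled counts (log axis) of the members with the largest rise, the deepest fall, the widest gap or the highest control FPKM, 1 point per sample; colours give the strain. In each row the Yl_5_3 samples lie below and the Yl_5_2 samples above the control samples, at levels from 11.1 scaled counts for XM_501911.1 to 8674 for XM_502508.1.

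The 6 most abundant members ranged in L2 from 0.46 to 0.83. XM_500451.1 (YALI1_B04589g), with the highest control level of 268 FPKM, had 3658, 4013 and 4076 scaled counts in Yl_5_1, 5547, 5558 and 5518 in Yl_5_2, and 2715, 2779 and 2936 in Yl_5_3. Its L2 of 0.50 and L3 of -0.48 were almost equal in size. XM_503010.1 (YALI1_D24054g, 238 FPKM) had 3369, 3392 and 3637 in Yl_5_1, 5768, 6245 and 6413 in Yl_5_2, and 2270.3, 2222 and 2049.5 in Yl_5_3. It had the largest rise of these abundant genes, 1.77-fold. XM_505045.1 (223 FPKM, no locus tag) had 1507, 1627 and 1482 in Yl_5_1, 1933, 2219 and 2220.1 in Yl_5_2, and 896, 919 and 881 in Yl_5_3.

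In the other 3 of the 6 most abundant members the strains were equally separate. XM_505642.1 (YALI1_F26574g, 189.9 FPKM) had 4104, 3913 and 4038 scaled counts in Yl_5_1, 5429, 5353 and 5798 in Yl_5_2, and 2019, 1919 and 2094 in Yl_5_3, where 50.04% of the control level was left. XM_503655.1 (YALI1_E08530g, 185 FPKM) had 3267, 3158 and 2749.9 in Yl_5_1, 4465, 4551 and 4457 in Yl_5_2, and 2389.6, 2293 and 2159 in Yl_5_3. XM_502508.1 (YALI1_D08884g, 173 FPKM) had 5869.8, 5835 and 5954 in Yl_5_1, 8320.2, 7476 and 8674 in Yl_5_2, and 3513, 3398 and 3356 in Yl_5_3. Its control samples were the closest to each other of the abundant members, with a mean of 5886 ± 61.4 (SD, n = 3), while those of Yl_5_2 varied by 615 (SD, n = 3).

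For 110 of the 114 members, or 96.5%, all 3 samples of Yl_5_2 lay above and all 3 of Yl_5_3 below the 3 control samples. Over all 6037 features the share ordered this way was 7.88%, with 30.4% above the controls in Yl_5_2 and 30.1% below them in Yl_5_3. With edgeR's quasi-likelihood test and Benjamini-Hochberg adjustment over all features, 113 members passed an adjusted p of 0.05 upward in Yl_5_2, where 27.4% of the 6037 features did, and 114 passed downward in Yl_5_3, where 29.7% did. Both calls together were made for 113 members and for 6.86% of the features. As the members were chosen on these contrasts, nothing is read from these counts. The 4 members with overlapping samples, singled out after their values were seen, had at most 277 scaled counts in any sample. XM_502200.1 (YALI1_C32914g) was the one whose control overlapped Yl_5_2 and the one not called upward, with 43.2, 70.9 and 40.9 in Yl_5_1, 72.7, 73.9 and 58.1 in Yl_5_2, and 38.7, 27.7 and 21.6 in Yl_5_3. In XM_501132.1, XM_501506.1 and XM_505869.1 the highest Yl_5_3 sample reached the lowest control sample, with 84.8 against 84.0, 132 against 129 and 86.9 against 82.9.

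Many members lay near a threshold. Of the 114, 58 were within 0.1 of one or both of the limits on the log2 scale. The members just inside the limit on L2 were XM_500006.1 (0.351), XM_501301.1 (0.351) and XM_505015.1 (0.356), and XM_502555.1 (0.349), XM_502370.1 (0.347) and XM_504125.1 (0.345) lay just outside. At the limit on L3 the nearest members were XM_505796.1 (-0.352), XM_505032.1 (-0.353) and XM_503441.1 (-0.355). Just outside this limit were XM_500261.1 (-0.349), XM_504908.1 (-0.347) and XM_501946.1 (-0.327). Membership at the border is therefore a matter of hundredths of a log2 unit, while the median SD of a member between samples of a strain was 0.09 in Yl_5_1, 0.09 in Yl_5_2 and 0.11 in Yl_5_3. In XM_500006.1, for example, the controls had 911, 1177 and 1321 scaled counts and the lowest Yl_5_2 sample 1416.

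The rule was also applied with 1 sample of each strain set aside. When it was applied to 2 samples of each strain and the values were read in the third, the choice held 127, 122 and 102 genes with replicate 1, 2 or 3 set aside. In the samples set aside, the median L2 of these genes was 0.48, 0.51 and 0.61, and the median L3 was -0.61, -0.64 and -0.68. Both directions were kept by 125 of 127, 121 of 122 and 99 of 102 genes. Of all filtered features, 19.6%, 21.3% and 24.0% had these directions in the same samples. A single sample per strain was past both thresholds for 64, 75 and 74 of the chosen genes, or 50.4%, 61.5% and 72.5%. These sets differ from the 114 members, of which they contained 102, 102 and 90, and the scaling factors used all 9 samples. As the samples of a strain may be technical repeats, those set aside are not shown to be independent of the others, and the counts describe how alike the samples of a strain were. The scheme was added after the data were seen.

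**Figure D4:**
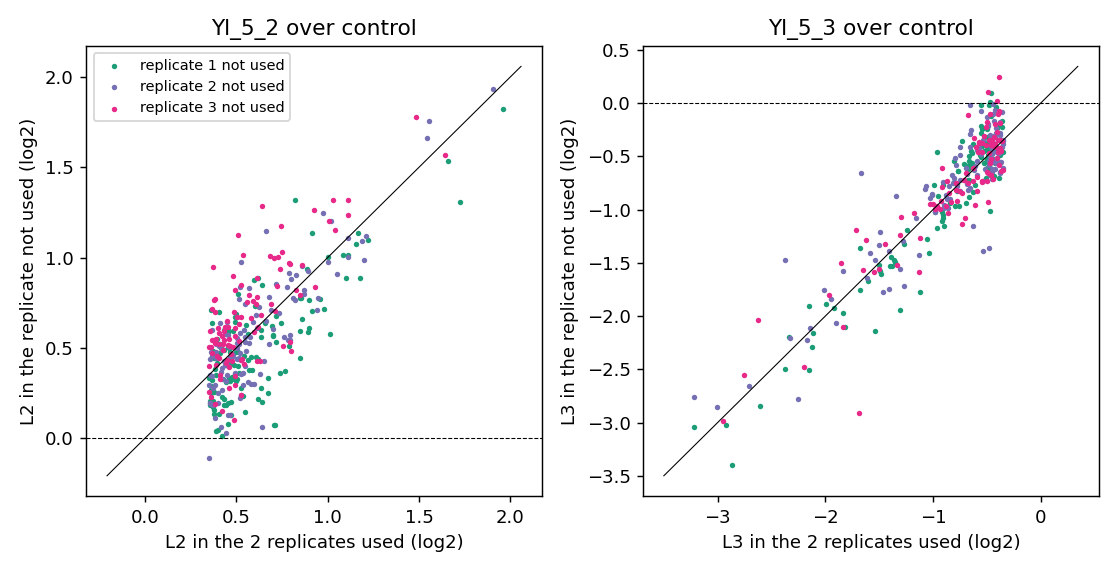
Genes chosen by the rule from 2 samples of each strain, with their L2 (left) and L3 (right) in the samples used on the horizontal axis and in the sample set aside on the vertical axis (log2); colours give the replicate set aside and the line marks equality. Nearly all points keep their direction, with medians in the samples set aside from 0.48 to 0.61 for L2 and from -0.68 to -0.61 for L3. The samples of a strain may be technical repeats and the scaling factors used all 9 samples. The points therefore describe only how alike the samples of a strain were.

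The members were lower in control level than the filtered genes as a whole. Their median control level was 22.1 FPKM, with quartiles of 9.51 and 47.4, against 48.3 FPKM, with quartiles of 20.3 and 120.1, over the 5565 filtered features. When these features were divided into 5 bins of 1113 by control FPKM, 51 features of the lowest bin were members, or 4.58%, and 7, or 0.629%, of the highest. The rule itself set a floor of 2 CPM and removed the 100 most abundant genes. In Yl_5_3 the rule also chose the members for lower counts than in the control. The median SD on the log2 scale was larger for the members than for the filtered features. It was 0.09 against 0.06 in Yl_5_1, 0.09 against 0.06 in Yl_5_2 and 0.11 against 0.05 in Yl_5_3. This compares members with all filtered features, not low levels with high levels. How far that spread adds to the number of members with low counts was not tested. With a floor of 10 CPM, 84 of the members were left.

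The coding length of the members, recovered from counts and FPKM as a whole number of bases that was a multiple of 3 in each XM_ feature, had a median of 1053 against 1263 over the filtered features. It ranged from 246 to 3594 bases. In 5 such bins of length, the share of members was 3.41% between 738 and 1089 bases and 0.898% from 2067 bases upward. It lay between 1.89% and 2.07% in the remaining bins, the shortest among them. The median L3 of the members was -0.89 in the middle bin and -0.43 in the longest bin, which held 10 members, whereas their median L2 lay between 0.48 and 0.53 in all 5 bins. No test was made of these differences.

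**Figure D5:**
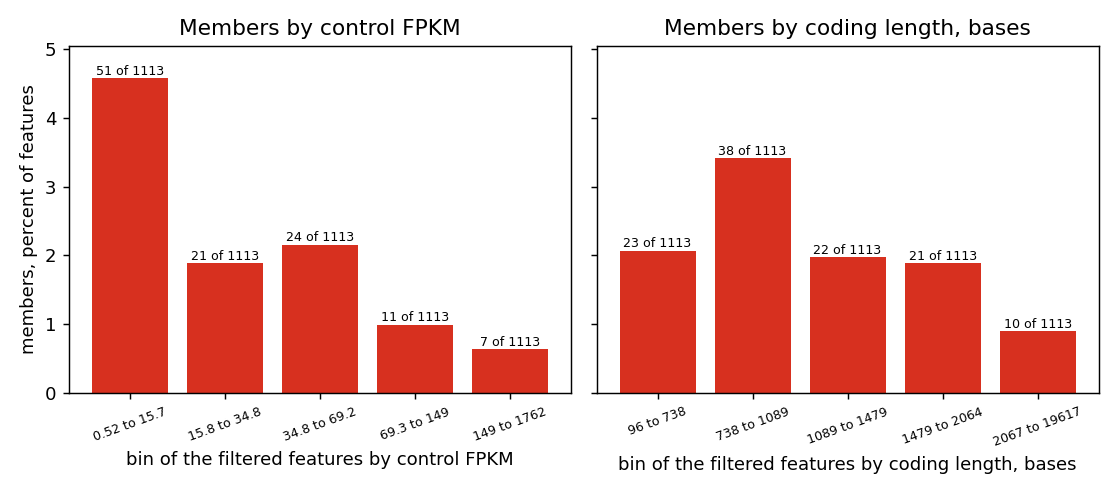
Bars give the percentage of the filtered features that are members, in 5 equal bins of the features by control FPKM (left) and by coding length in bases (right), with the number of members above each bar. The share is 4.58% in the lowest and 0.629% in the highest bin of control FPKM. By length it is 3.41% in the second bin, 0.898% in the longest and between 1.89% and 2.07% in the remaining bins.

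Of the members, 103 were found in the annotation of strain W29 by accession without its version number, and 11 were not. All 6 chromosomes held members. Chromosome 1E held 26, or 25.2% of those placed, and 23.4% of the placed filtered features, chromosome 1F held 23, 1B 17, 1C 13 and 1A 11. Chromosome 1D held 13 members, or 12.6%, against 17.2% of the features. The number of members per 100 filtered features was between 1.46 on 1D and 2.22 on 1A.

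The members were mostly single genes among neighbours that did not follow them. Neighbours were taken among the measured genes in the order of the annotation, so annotated genes without a value can lie between them. Of the 197 filtered genes next to a member in this order, 47, or 23.9%, had an L2 above 0 and an L3 below 0. Among the neighbours of all filtered genes the share was 22.0%. The median L2 and L3 of the 197 neighbours were 0.02 and 0.00. Of the 197 neighbours, 4, or 2.03%, were members themselves, close to the 2.05% of all filtered genes that were members. Members followed each other directly in 2 places, which were singled out after their values were seen. On chromosome 1A, XM_500262.1 (YALI1_A20995g) had 3739, 4044 and 4061 scaled counts in Yl_5_1, 7171, 7696 and 7265 in Yl_5_2, and 2560.3, 2606 and 2509 in Yl_5_3. Its neighbour XM_500263.1 (YALI1_A21000g) had 391, 338 and 333 in Yl_5_1, 723, 777 and 739 in Yl_5_2, and 204, 181 and 192 in Yl_5_3. The levels of this pair differed widely, at 169 and 21.7 FPKM in the control, but their ratios were alike, with L2 of 0.90 and 1.08 and L3 of -0.63 and -0.88.

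On chromosome 1E the pair was XM_503869.1 (YALI1_E15555g) and XM_503870.1 (YALI1_E15559g). The former had 833, 803 and 858 scaled counts in Yl_5_1, 1417, 1420.0 and 1674 in Yl_5_2, and 301, 346 and 298 in Yl_5_3, with an L2 of 0.85 and an L3 of -1.40. The latter had 1787, 1702 and 1789.9 in Yl_5_1, 2659, 2667 and 3001 in Yl_5_2, and 1011, 1011 and 1018 in Yl_5_3. Its L2 was 0.66 and its L3 -0.80, and in both genes the samples of the 3 strains stood apart. In the W29 annotation, 0 of the 103 placed members overlapped the span of another gene. Whether counting used strand, and the build behind the counts, are not given in the sources used here.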

How the data were processed

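RNA of 3 strains with 3 samples each was sequenced on the Illumina platform after library preparation with the NEBNext Ultra RNA kit. The authors deposited raw read counts per feature, and also FPKM values, which the counts reproduce once scaled to the library total and to a length in whole bases. The submitters' processing notes list HTSeq 0.6.1 and DESeq 1.18.0; the aligner, annotation and genome build are not given in the sources used here. Every sample column was used.

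From the counts, the members were chosen by the rule given at the start of the report. The members, gene lists and tests were chosen with earlier results of these data known. The background shares came from edgeR 4.0.16 in R 4.3.3 (TMM factors, 1 term per strain over all 9 samples, robust quasi-likelihood F test, Benjamini-Hochberg adjusted p over 6037 features that reached 10 counts in 3 or more samples). DESeq2 1.42.0 was an alternative. Genes were named by rule: the 6 highest L2, the 6 lowest L3, the 6 widest gaps, the 6 highest control FPKM, and the 3 nearest each threshold on either side. Planned lists by product name and promoter motifs were not run, since no product names or promoter sequences were used here. Of the 5959 accessions, 5430 were found in the RefSeq table of ASM176148v1. Counting error only is covered by the read numbers given.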

Additional observations from a re-analysis of the deposited data

How the results depend on the processing

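The number of members depended most on the threshold, with 215 genes at 0.25 and 34 at 0.5, while the rule with both signs turned gave 67 and 6. Leaving out 1 sample at a time gave 109 to 124 (14 to 19 with both signs turned), and 77 of the 114 members were kept under every such choice. With total counts 171 genes were chosen, all members among them. No CPM floor gave 136. Of 624 recomputed L2 and L3 values of the 24 named members, none changed sign and 9 moved by more than the spread (SD) between samples. All 9 were with total counts, which shifted the median L2 and L3 of all features by 0.06 and -0.09. Leaving out 1 of 3 samples moves their mean by less than their SD, so such a move was hardly possible there. The named members were chosen on these same samples, so the kept signs are a description. Features called numbered 3467 in Yl_5_2 and 3338 in Yl_5_3, and between 3178 and 3407 and between 2946 and 3442 with 1 sample left out. With total counts 61.7% of those called in Yl_5_2 rose, against 47.7%, and 31.8% of those in Yl_5_3, against 46.3%. Over these settings 109 to 113 members were called upward in Yl_5_2 and 108 to 114 downward in Yl_5_3. In the main fit 27.4% of the 6037 features were called upward in Yl_5_2 and 29.7% downward in Yl_5_3. As the members were chosen on these contrasts, nothing is read from their counts.

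The replicate numbers showed no clear pairing of the samples. The correlation of deviations between samples with the same number ran from -0.186 to 0.142. Between samples with different numbers it ran from -0.289 to 0.289. A replicate block gave 3430 and 3264 features. The motif alternatives were not run.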

Other observations

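The members next to each other on chromosome 1A lay in a stretch of 4 consecutive measured genes that were all higher in Yl_5_2. XM_500261.1 (YALI1_A20965g), which precedes the pair and missed the limit on L3 narrowly, had scaled counts of 87.3, 73.9 and 74.3 in Yl_5_1, 140.4, 138 and 145 in Yl_5_2, and 54.5, 65.5 and 64.9 in Yl_5_3. XM_500264.1 (YALI1_A21021g), which follows the pair after 1 annotated gene without a value, had 327, 470.5 and 427 in Yl_5_1, 774, 801 and 698 in Yl_5_2, and 487, 478 and 480.2 in Yl_5_3. The L2 of the 4 genes was 0.85, 0.90, 1.08 and 0.89, and the L3 was -0.35, -0.63, -0.88 and 0.24, so the last gene shared the rise but not the fall. Of the genes on either side, XM_500260.1 had an L2 of -0.50 and XM_500265.1 one of -0.31.

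Beside the pair on chromosome 1E, XM_503871.1 (YALI1_E15583g) had 9486, 9588 and 9717 scaled counts in Yl_5_1, 16178, 16159.9 and 16255 in Yl_5_2, and 8006, 8560.4 and 8346 in Yl_5_3. It is more abundant than any member, at 291 FPKM in the control, and its L2 of 0.76 was close to those of the pair, while its L3 of -0.21 did not reach the limit. The other genes around the pair varied. XM_503862.1 had the directions of the pair, with an L2 of 0.12 and an L3 of -0.48, and was past the limit on L3 only. XM_503864.1 had an L2 of -0.29 and an L3 of -0.65. XM_503865.1 had an L2 of -0.46 and an L3 of -0.33, and XM_503866.1, which is listed at 0.123 FPKM in the control, had an L2 of 3.70 and an L3 of 3.24. On the far side of XM_503871.1, XM_503872.1 had an L2 of 0.21 and an L3 of -0.04, and XM_503873.1 had an L2 of 2.001 and an L3 of 0.32. Beyond these, XM_503874.1 had an L2 of 0.40 and an L3 of 0.19. These stretches were singled out after their values were seen, and whether they are more than chance was not tested.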
